A study of Mus musculus with 8 samples.

Results

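The cytosolic ribosomal protein genes encode the protein parts of the ribosome that works in the cytosol. They were taken here as the protein-coding genes of GENCODE M21 named Rpl or Rps and a number, with an optional letter or l suffix, together with Rplp0, Rplp1, Rplp2 and Rpsa, and without the Rps6k kinases and names with -ps. This gave 83 genes of 35944 in the table, 31 of the small subunit and 52 of the large subunit, and 80 of them had enough counts to be tested. RNA came from mouse buffy coat, which is the thin layer of white cells and platelets above the red cells when blood is spun. The mice had been exposed to PM2.5 (fine particles carried in air) or given PBS (buffered saline) as the control, and the design covers 24 weeks. Each group held 4 libraries, named by the numbers in their titles as PBS replicates 4, 10, 12 and 16 and PM2.5 replicates 9, 17, 18 and 21. The labels give no strain, age, sex or batch and do not say that each library came from a separate mouse, so every p-value rests on the spread among these samples alone, which may be technical.

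Ribosomal proteins are made in matched amounts and assembled on ribosomal RNA in the nucleolus into a small subunit, which reads the messenger RNA, and a large subunit, which joins the amino acids. Their messenger RNAs typically begin with a run of pyrimidines (C or T in DNA), the TOP motif, by which mTORC1 signalling and the protein LARP1 control their translation as a group. In blood, red cell precursors depend on high ribosome production, and inherited loss of a single copy of one of several of these genes causes Diamond-Blackfan anaemia. Reticulocytes, the youngest circulating red cells, clear their ribosomes as they mature.

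The bases around the start site are shown because the TOP motif is the feature these genes are best known to share. Of the 83 genes, 63 had an entry in the RefSeq promoter table (build GRCm38.p6). In 13 of them, 20.6%, a listed first base was a C followed by at least 4 further pyrimidines, against 3.01% of the 27025 genes in that table and 2.98% of the 8047 tested genes with an entry. In these shares and those below, a gene with several listed starts counted if any of them had the feature. Each line gives 15 bases before and 15 bases from the listed start, 5′ to 3′ on the gene's strand, with the pyrimidine run at the start in capitals. Rps6, Rplp2, Rps27, Rpl38 and Rpl14 carried the run, and Rpl12 and Rpl5, which are described below, did not carry it at the listed base.
Rps6: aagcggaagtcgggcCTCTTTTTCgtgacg
Rplp2: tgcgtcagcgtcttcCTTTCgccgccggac
Rps27: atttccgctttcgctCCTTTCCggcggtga
Rpl38: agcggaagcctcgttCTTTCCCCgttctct
Rpl14: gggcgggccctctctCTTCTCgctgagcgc
Rpl12: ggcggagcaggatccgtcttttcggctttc
Rpl5: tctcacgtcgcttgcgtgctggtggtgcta
The windows lie at chr4:86857353-86857382 (minus strand) for Rps6, chr7:141447636-141447665 (plus) for Rplp2, chr3:90213634-90213663 (minus) for Rps27, chr11:114668565-114668594 (plus) for Rpl38, chr9:120571502-120571531 (plus) for Rpl14, chr2:32961697-32961726 (plus) for Rpl12 and chr5:107900513-107900542 (plus) for Rpl5. A listed start can lie some bases from the start used in these cells. A C with at least 4 further pyrimidines lay anywhere within the 30 bases in 42 of the 63 genes, 66.7%, against 43.3% of the tested genes with an entry. The letters CCGGAAG, searched on both strands over the 300 bases of each promoter (250 before and 50 from the start), stood in 25 of the 63, 39.7%, against 21.9% of the tested genes. The median log2 change with PM2.5 was 0.12 over the 13 genes that began with the run and 0.10 over the 47 other tested genes with an entry.

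Libraries held 72081019 to 89032794 expected counts (estimated read counts), of which haemoglobin genes took 82.4% to 87.9% with PBS and 86.7% to 88.6% with PM2.5. Ribosomal protein genes took 147708 to 252121 counts per library. All 5 general leukocyte markers examined (Ptprc, Cd53, Coro1a, Itgb2 and Laptm5) were measured, with summed levels of 152 to 178 CPM with PBS and 166 to 190 CPM with PM2.5. CPM here are counts relative to library size after TMM scaling, which sets the bulk of genes level between libraries.

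Ribosomal protein transcripts were among the more abundant messages. Their median level was 43.1 FPKM (fragments scaled by transcript length and library size, a level per length) over all 83 genes, against 0.566 FPKM over all 10361 genes tested. Counted without their near-identical copies, the highest was Rpl41, which encodes the smallest ribosomal protein, at a mean of 707 FPKM over the 8 libraries. The stalk genes Rplp1 (572 FPKM), Rplp2 (498) and Rplp0 (385) followed, and Rpl34 (319), Rps14 (299) and Rps27 (286) were also among the highest. With the FPKM of copies added, Rps29 (478), Rps12 (474) and Rps28 (409) lay above Rplp0 (385). For Rps29 and Rps28 that order rests on few counts of short copies. Copies of Rps29 had a mean of 36.3 counts (324 FPKM), and the gene itself 1224 counts (154 FPKM). Copies of Rps28 had 100 counts (325 FPKM), and the gene itself 636 counts (84.9 FPKM). Rplp0 had 33331 counts. In all, 17 genes had 100 FPKM or more and 14 had under 10. Those 14 were the 7 paralogs of other members and 7 further genes, most of which are taken up below with their copies.

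After PM2.5, none of the 80 ribosomal protein genes tested passed edgeR's quasi-likelihood test at a Benjamini-Hochberg adjusted p of 0.05, where 1.6% of all genes tested did. At an unadjusted p under 0.05 there were 3, or 3.75%, against 18% of all genes tested. DESeq2 also called 0 of the 80, against 3.6% of all genes in that fit, and 3 had an unadjusted p under 0.05, against 18.5%. In TMM-scaled CPM the groups overlapped in every one of the 80, whereas they did not overlap in 9.66% of all genes tested. The log2 changes ran from -0.61 to 0.71 with a median of 0.09, and the median of all genes tested was 0.04. Over the 3619 tested genes at 1 FPKM or more in 4 libraries, nearer to these genes in level, the median was 0.17. On this scaling 64 genes lay above 0 and 16 below, but with counts scaled to library totals 1 lay above 0 and 79 below. The 95% interval lay within 2-fold either way for 77 of the 80 genes and within 1.5-fold for 46. Small subunit genes had a median of 0.08 (24 of 31 above 0) and large subunit genes a median of 0.12 (40 of 49 above 0).

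**Figure D1:**
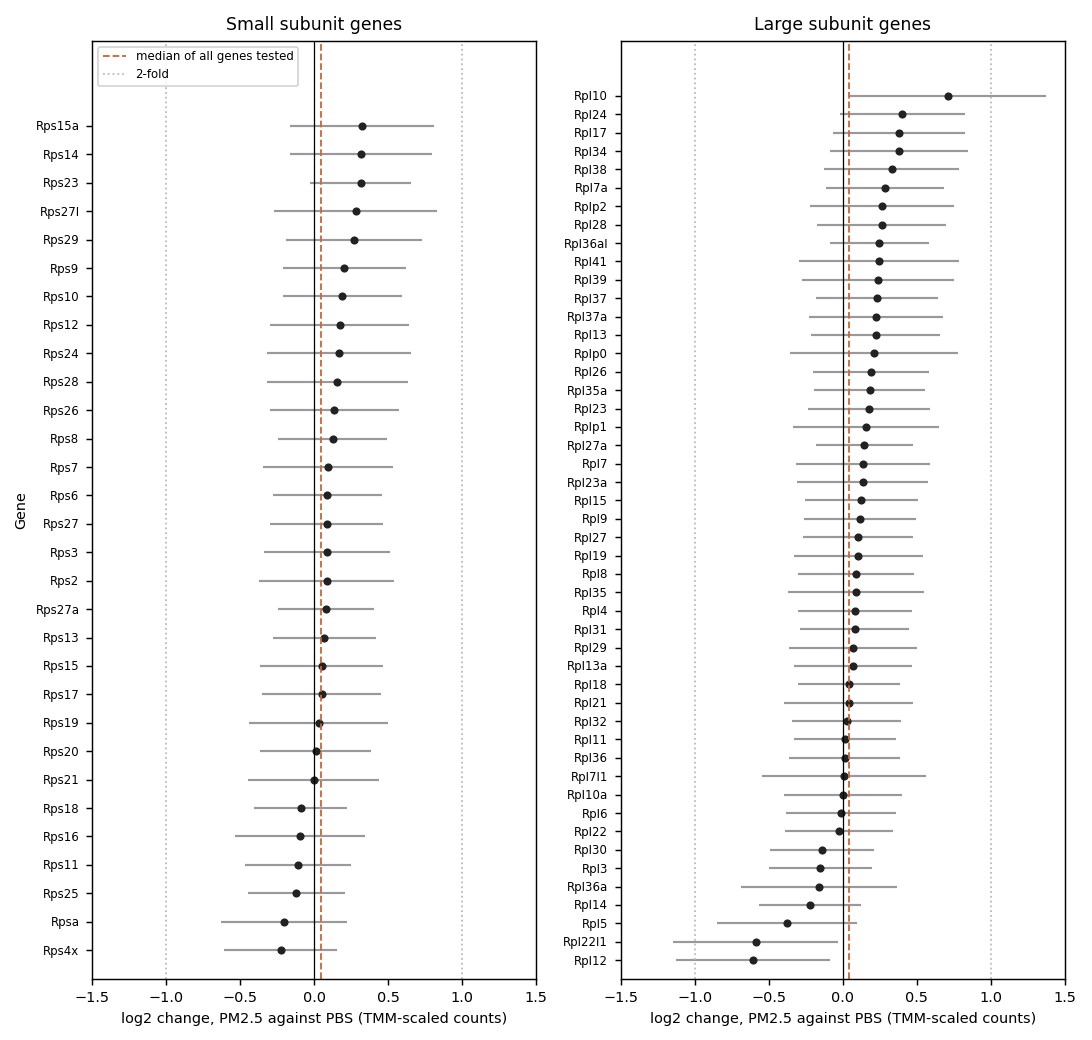
Log2 change with PM2.5 against PBS on TMM-scaled counts (horizontal axis) for 78 of the 80 ribosomal protein genes tested, in small and large subunit panels, with points for the estimate and bars for the 95% interval (4 libraries a group). The estimates run from -0.61 to 0.71 around the dashed median of all genes at 0.04, and most intervals include 0.

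The smallest p belonged to Rpl12, whose protein sits at the base of the stalk (chromosome 2, 32961559 to 32965345, GRCm38). It was at 1.21, 1.502, 0.824 and 1.24 CPM in PBS replicates 4, 10, 12 and 16 and at 0.510, 0.660, 0.925 and 1.05 CPM in PM2.5 replicates 9, 17, 18 and 21. The groups overlapped, since PBS replicate 12 lay below 2 of the PM2.5 libraries. The log2 change was -0.61 (SE 0.247, unadjusted p = 0.0245, edgeR adjusted p = 0.216). Identical or near-identical copies elsewhere in the genome held 95.8% of the counts of Rpl12 and its copies, and with them added the log2 change was 0.04 (unadjusted p = 0.802).

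Next came Rpl10, which joins the large subunit late in its assembly (chromosome X, 74270812 to 74273135). It was at 3.69, 6.30, 2.38 and 1.43 CPM in the PBS libraries, in the same order, and at 6.47, 5.90, 6.49 and 3.80 CPM in the PM2.5 libraries. PBS replicate 10 lay among the PM2.5 libraries, and the PBS group spread more than 4-fold. The log2 change was 0.71 (SE 0.313, unadjusted p = 0.0362, edgeR adjusted p = 0.247). Without the filter on low counts it passed (0.69, adjusted p = 0.00623), the 1 call among 81 of these genes where 3.46% of all genes were called, and over its 20 alternatives the adjusted p ran from 0.00623 to 0.898. Copies held 94.3% of its counts together with theirs, and with them added the log2 change was 0.26 (unadjusted p = 0.253).

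The third was Rpl22l1, a paralog of Rpl22 that can take its place in the large subunit (chromosome 3, 28805436 to 28807424). Its level was 0.686, 0.504, 0.635 and 0.482 CPM with PBS and 0.311, 0.367, 0.315 and 0.523 CPM with PM2.5. PM2.5 replicate 21 lay above PBS replicates 10 and 16, and the other 3 PM2.5 libraries lay below all PBS libraries. The log2 change was -0.59 (SE 0.265, unadjusted p = 0.0398, edgeR adjusted p = 0.253). Rpl24, at 0.40 (adjusted p = 0.299), Rps23, a protein of the decoding centre, at 0.31 (0.315), and Rpl17, at 0.38 (0.347), completed the 6 genes with the smallest p.

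The stalk proteins recruit elongation factors to the large subunit, and none of their 3 genes passed, where 1.6% of all genes did. All 3 had estimates above 0 on the TMM scaling (median 0.21, all genes 0.04). With library totals all 3 were below 0 (median -0.38, all genes -0.52). Rplp0, which anchors the stalk, was at 327, 314, 526 and 377 CPM with PBS and at 280, 613, 493 and 404 CPM with PM2.5. PM2.5 replicate 9 was the lowest of all 8 libraries and PM2.5 replicate 17 the highest, so the PM2.5 group enclosed the PBS group. The log2 change of Rplp0 was 0.21 (SE 0.270, edgeR adjusted p = 0.699), that of Rplp1 0.15 (0.754) and that of Rplp2 0.27 (0.554).

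Rpl5 and Rpl11 carry the 5S ribosomal RNA into the large subunit and, when assembly fails, bind and inhibit MDM2, the ubiquitin ligase that restrains p53. Rpl11 was at 10.5, 12.2, 13.5 and 11.8 CPM with PBS and at 10.8, 12.1, 11.7 and 13.8 CPM with PM2.5, with nearly the same range in both groups. Its log2 change was 0.02 (95% interval -0.33 to 0.36, edgeR adjusted p = 0.969). Rpl5 had -0.38 (SE 0.225, adjusted p = 0.373), with 0.841, 1.31, 0.824 and 1.04 CPM in the PBS libraries and 0.747, 0.605, 0.981 and 0.760 CPM in the PM2.5 libraries. PM2.5 replicate 18 lay among the PBS libraries, and the other 3 lay below all of them. Of 4 genes of p53 surveillance examined (Mdm2, Mdm4, Trp53 and Cdkn1a), none passed, where 1.6% of all genes did. Mdm4, an MDM2 partner, was at -0.46 (edgeR adjusted p = 0.136, with 0.0219 to 0.621 over 20 alternatives and a call by DESeq2 and with library totals) and Mdm2 at 0.26 (0.446).

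All 18 genes of a Diamond-Blackfan anaemia list were tested and none passed, where 1.6% of all genes did. On the TMM scaling 17 were above 0, with a median of 0.10 (all genes 0.04). With library totals all 18 were below 0, with a median of -0.46 (all genes -0.52). Rps19, the gene of the list most often mutated in that disease, was at 15.8, 15.3, 19.5 and 16.2 CPM with PBS and 11.2, 26.0, 14.8 and 16.2 CPM with PM2.5. Its PM2.5 libraries included both the lowest and the highest of the 8. The log2 change was 0.03 (SE 0.222, edgeR adjusted p = 0.956). Rpl5 was the member of the list below 0 on the TMM scaling.

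Among the other genes with assigned roles, Rps6, the target of S6 kinase, was at 0.09 (edgeR adjusted p = 0.813) and Rps27a, made as a fusion with ubiquitin, at 0.08 (0.807). Rpsa, which also occurs as a laminin receptor, was at -0.20 (0.611), and Rps4x, an X-linked gene of the small subunit, was at -0.23 (0.515). Rps14 was at 0.32 (0.467), Rps27 at 0.09 (0.830), Rpl41 at 0.24 (0.635), Rpl34 at 0.38 (0.369), Rpl38 at 0.33 (0.425) and Rpl14 at -0.22 (0.473).

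Of the 83 genes, 7 are paralogs of another member, and most of them were low or not detectable. Rpl3l, a form found in muscle, and Rpl10l, a form found in testis, had 0 counts in all 8 libraries, which at 3 counts allows up to 0.0273 to 0.0555 CPM depending on the library. Rpl39l, also known from testis, had 1 count in PM2.5 replicate 18 and 0 elsewhere. Rps27l was at 2.49 FPKM and a log2 change of 0.28 (edgeR adjusted p = 0.584), Rpl7l1 at 0.451 FPKM and 0.01 (0.990), and Rpl36al at 9.06 FPKM and 0.25 (0.418). Rpl22l1, given above, was at 1.86 FPKM.

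The common level of these genes differed more between libraries of one group than between the groups. Each gene's log2(CPM + 0.5) was set against its own mean over the 8 libraries, and the median over the 80 genes was taken per library. It was -0.14, -0.14, 0.21 and -0.09 in PBS replicates 4, 10, 12 and 16 and -0.27, 0.29, 0.02 and 0.15 in PM2.5 replicates 9, 17, 18 and 21. In PBS replicate 12, 73 of the 80 genes were above their own mean, and in PM2.5 replicate 17, 70 were. In PM2.5 replicate 9, 5 were. The pooled SD of these medians within groups was 0.208, against a median log2 change between the groups of 0.09.

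Erythroid marker genes, 17 genes of red cells and their precursors, moved with some of these libraries. Their median deviation, on the same measure, was -0.13, -0.51, 0.02 and -0.23 with PBS and -0.17, 0.47, 0.45 and 0.08 with PM2.5, and their summed level was 17038 to 27969 CPM with PBS and 21167 to 37039 CPM with PM2.5. All 17 erythroid markers were above 0 on the TMM scaling, with a median log2 change of 0.48, 2 of the 17 were above 0 with library totals (median -0.12, all genes -0.52), and none passed. With the mean erythroid level as a covariate the median of the ribosomal protein genes was -0.16 (all genes 0.02), with 70 of 80 below 0. That fit called 0 of all 10361 genes (0%), so its 0 calls among the 80 carry no information on them. In these bulk samples fewer cells of a type and less RNA per cell cannot be told apart. Past the edgeR test without the covariate, where 1.6% of all genes passed, 5 of 10 neutrophil markers and 3 of 8 monocyte markers were higher and 3 of 12 B cell markers were lower. On that TMM scaling 2 of the 10 neutrophil markers lay below 0. With library totals the neutrophil, monocyte and B cell medians were 0.38, 0.04 and -0.92 (all genes -0.52). There 2 of 10 neutrophil and 3 of 8 monocyte markers lay below 0. No gene passed with the erythroid covariate or in limma on FPKM, these markers included. Their part in the values of ribosomal protein genes was not tested.

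**Figure D2:**
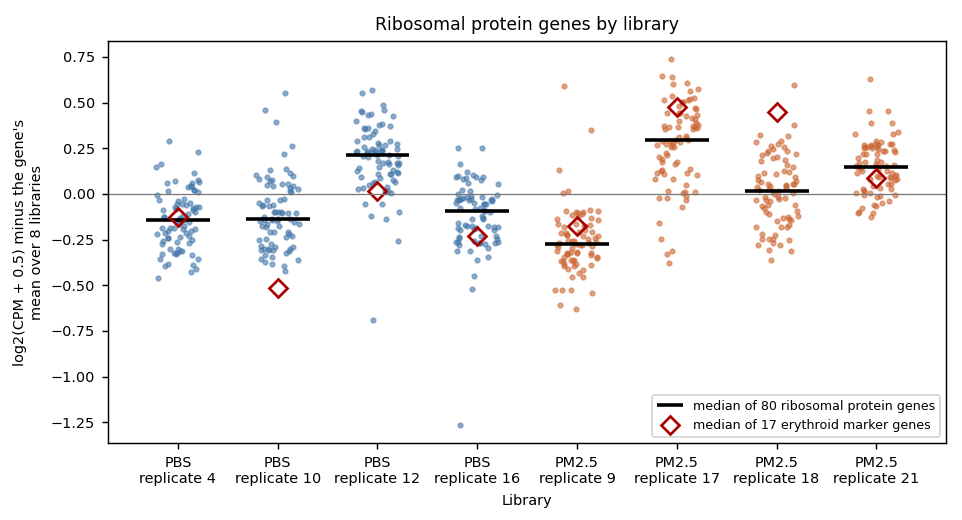
Deviation of each of the 80 tested ribosomal protein genes from its own mean over 8 libraries, on log2(CPM + 0.5) (vertical axis), by library, with black bars at the median and red diamonds at the median of 17 erythroid markers. Most genes lie above 0 in PBS replicate 12 and PM2.5 replicate 17 and below 0 in PM2.5 replicate 9, where the median is -0.27.

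As a share of all counts outside haemoglobin, ribosomal protein genes took 1.84%, 2.10%, 2.12% and 2.12% in the PBS libraries and 1.65%, 1.85%, 1.54% and 2.14% in the PM2.5 libraries. The shares of PM2.5 replicates 9 and 18 were under the lowest PBS share, that of replicate 17 was close to it, and PM2.5 replicate 21 had the highest share of all. The mean was 2.05% ± 0.136 with PBS and 1.79% ± 0.264 with PM2.5 (SD, n = 4 each). Small subunit genes held 29.2% to 32.3% of the ribosomal protein counts with PBS and 28.0% to 30.6% with PM2.5, with overlapping ranges.

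The size and sign of the common level depended on what the libraries were scaled to. With haemoglobin counts removed and libraries scaled to their totals, the median of the ribosomal protein genes was -0.25 and that of all genes -0.30, with 76 of 80 below 0. With library totals the medians were -0.46 and -0.52, and Rpsa was lower at -0.77 (edgeR adjusted p = 0.0495), 1 call among 80 genes where 4.66% of all genes were called. On the deposited FPKM, limma gave a median of -0.46 on log2(FPKM + 1) and -0.28 for all genes at 1 FPKM or more in 4 libraries. There 78 of the 79 ribosomal protein genes lay below 0, against 91.8% of all genes in that fit. At an unadjusted p under 0.05 there were 38, against 19.6% of all genes in that fit, which called 0 of its 3658 genes (0%) after adjustment. On log2(FPKM + 0.1) the medians were -0.48 and, for all genes, -0.38. The gap between the medians thus depended on the constant added to FPKM. Leaving out 1 library at a time on the TMM scaling gave 0 calls each time, where 0.294% to 1.82% of all genes were called, and medians from 0.02 (without PM2.5 replicate 17) to 0.20 (without PBS replicate 12).

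**Figure D3:**
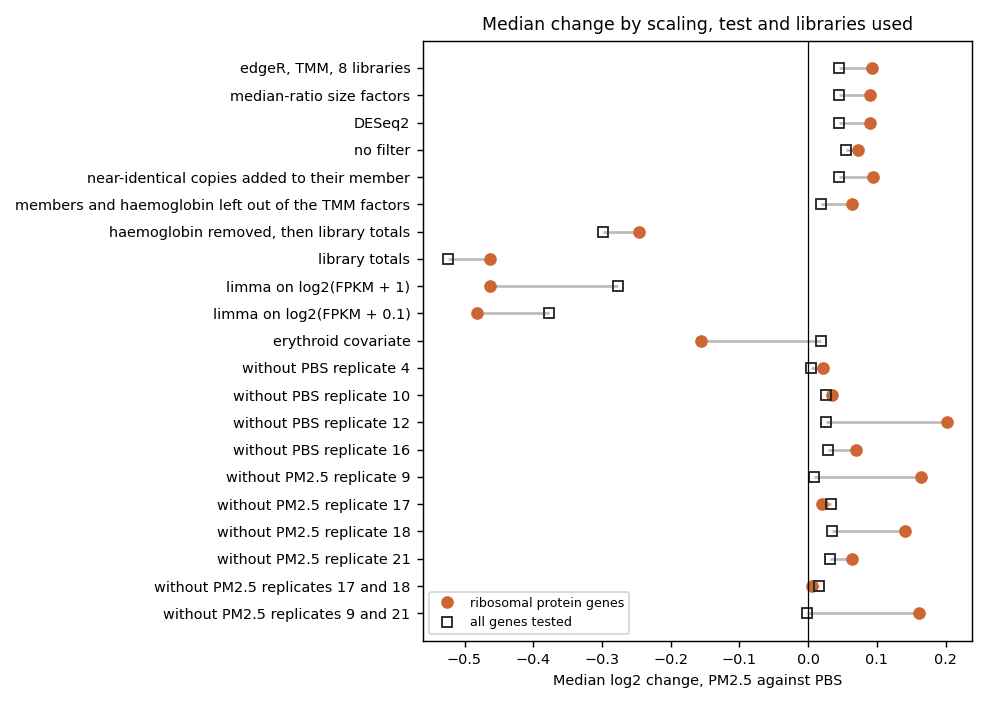
Median log2 change with PM2.5 (horizontal axis) of the ribosomal protein genes (filled circles) and of all genes tested (open squares) under each scaling, test and set of libraries (vertical axis). Both medians fall below 0 with library totals, with haemoglobin removed and on FPKM, where the circles reach -0.46 and -0.48.

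Ribosomal protein genes have many processed pseudogenes, copies of the spliced message inserted elsewhere in the genome, and reads of identical stretches can be assigned to either. A copy was defined here as another gene whose transcript matched the coding sequence at 95% identity or more over 80% of its length or more. The table held 556 such copies, 539 of them typed as pseudogenes, for 74 of the 83 genes, with the most, 57, for Rpl21. Copies held 11.3% of all counts of these genes and their copies, and 10.6% to 12.01% in single libraries. For 7 genes they held over 50%. The share was 98.9% for Rps12, 97.4% for Rpl5, 95.8% for Rpl12, 94.3% for Rpl10, 83.3% for Rps23, 72.8% for Rpl27a and 57.1% for Rpl31.

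For each of these 7 genes the copy with the most counts did not differ from the gene at any aligned base, over all coding bases in Rpl12, Rpl5, Rpl10 and Rpl27a, 425 of 429 in Rps23, 384 of 444 in Rps12 and 346 of 387 in Rpl31. The stretches below, from GENCODE M21 transcripts (GRCm38), show the first 60 coding bases of 3 such genes, which read the same in the gene and in its most counted copy. Rpl11 is set beside them as a gene whose most counted copy differs, with the 4 differing bases in capitals.
Rpl12 and Gm10275: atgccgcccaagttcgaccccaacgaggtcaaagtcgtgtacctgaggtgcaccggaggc
Rpl5 and Gm15500: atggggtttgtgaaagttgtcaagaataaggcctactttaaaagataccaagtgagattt
Rpl10 and Rpl10-ps3: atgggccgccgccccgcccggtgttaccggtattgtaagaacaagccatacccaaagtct
Rpl11: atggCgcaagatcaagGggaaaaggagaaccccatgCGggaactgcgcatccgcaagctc
Gm7384: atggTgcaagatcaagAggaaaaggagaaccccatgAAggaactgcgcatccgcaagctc
Gm10275, a transcribed processed pseudogene (chromosome 10, 29698746 to 29699380, minus strand), matched all 495 coding bases of Rpl12 and had a mean of 2026 counts, where Rpl12 had 88.3. Gm15500, of the same type (chromosome 7, 114705217 to 114706235, minus strand), matched all 891 coding bases of Rpl5 and had a mean of 2897 counts, where Rpl5 had 77.3. Rpl10-ps3, which GENCODE types as protein coding (chromosome 9, 50344201 to 50344968, minus strand), matched all 642 coding bases of Rpl10 and had 5998 counts, where Rpl10 had 365.7. Gm7384 (chromosome 6, 141138047 to 141138576) differed from Rpl11 at 25 of 534 bases and had 2 counts in PBS replicate 4, 1 in PM2.5 replicate 18 and 0 elsewhere. Another copy of Rpl11 differed at only 1 aligned base, and all 6 copies together held 0.0605% of counts. Of the 73 genes with copies and counts, 23 had a copy with 0 differences, and in these the copies held a median of 15.4% of counts (range 0% to 98.9%). In the other 50 the median was 0.111% and the highest 37.9%.

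With the FPKM of copies added, the ribosomal protein genes that are not paralogs spanned 9.29 (Rpl14) to 707 FPKM (Rpl41), a 76.1-fold range, in place of 553-fold without copies. Rps12 moved from 3.40 to 474 FPKM, Rpl5 from 1.28 to 59.8, Rpl12 from 1.65 to 75.3, Rpl10 from 10.6 to 166 and Rps23 from 4.61 to 115. Of these 76 genes, 7 lay under 10 FPKM alone and 1 with copies.

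**Figure D4:**
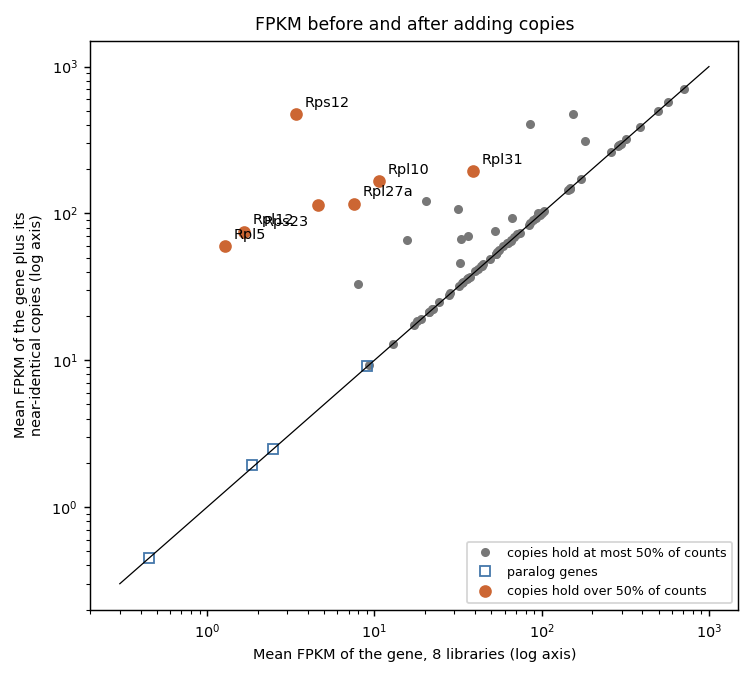
Mean FPKM over 8 libraries of each tested ribosomal protein gene alone (horizontal, log axis) and with the FPKM of its near-identical copies added (vertical, log axis), with the line of equality. The 7 orange points, genes whose copies held over 50% of counts, lie far above the line, and Rps12 moves from 3.40 to 474 FPKM, while the 4 blue paralogs stay low.

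Adding the counts of copies also changed the estimates at both ends of the range. Rpl12 with its copies was at 21.7, 25.8, 29.2 and 23.8 CPM in the PBS libraries and 22.2, 27.5, 26.5 and 27.3 CPM in the PM2.5 libraries, with interleaved groups and a log2 change of 0.04 (SE 0.176, edgeR adjusted p = 0.913) in place of -0.61. Rpl10 with its copies was at 62.8, 62.0, 93.8 and 70.0 CPM with PBS and 64.5, 108, 95.6 and 77.5 CPM with PM2.5, a log2 change of 0.26 (SE 0.219, adjusted p = 0.540) in place of 0.71. The spread of Rpl10 within the PBS group, over 4-fold for the gene alone, narrowed to the highest in PBS replicate 12 and the other 3 close together.

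Rpl5 moved from -0.38 to -0.09 (edgeR adjusted p = 0.825), Rps23 from 0.31 to 0.12 (0.744), Rps12 from 0.17 to 0.37 (0.404) and Rpl36a from -0.16 to -0.05 (0.921). These 6 genes were those that moved by more than 0.1. Rpl22l1, with few copy counts, kept -0.58 (SE 0.260, unadjusted p = 0.0388, adjusted p = 0.250) and was then the lowest of the 80. With copies added, 0 of the 80 passed (1.62% of all genes did), 1 had an unadjusted p under 0.05, the median was 0.09 and 64 of 80 lay above 0.

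**Figure D5:**
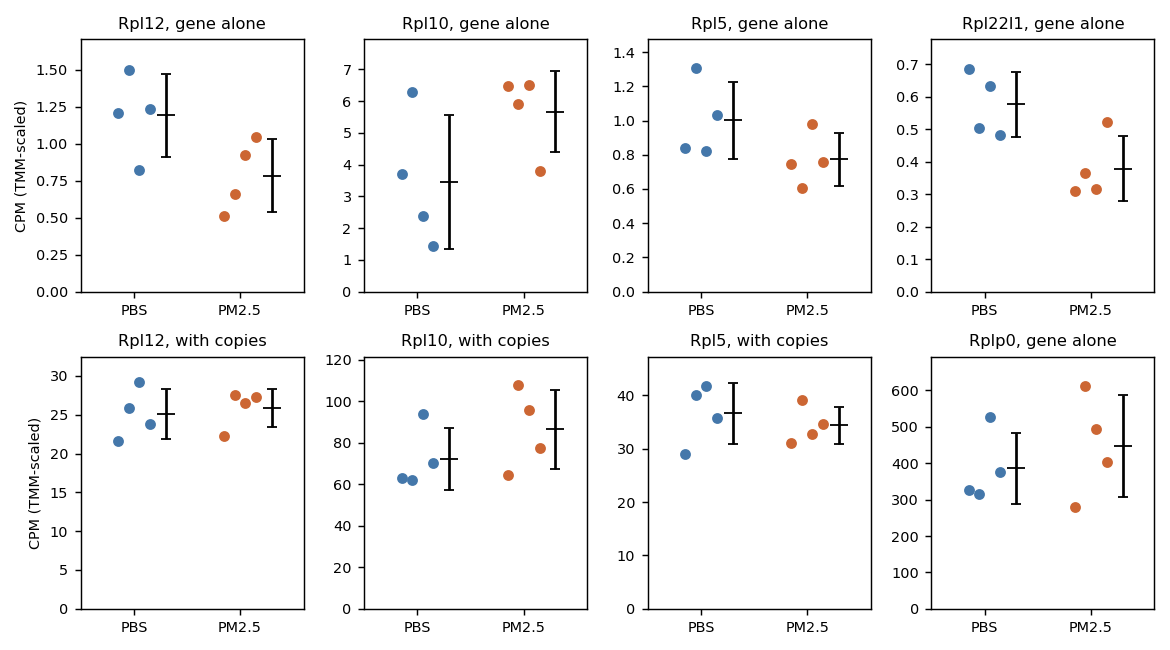
TMM-scaled CPM (vertical axes from 0) in each PBS and PM2.5 library, as points beside the mean and SD (n = 4 a group), for Rpl12, Rpl10 and Rpl5 alone and with copies, and for Rpl22l1 and Rplp0 alone. The offset of Rpl12 between groups (-0.61 on the log2 scale) is not seen with copies (0.04), and the Rplp0 points of PM2.5 enclose those of PBS.

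The deposited table is per transcript, and 189 of the 500 transcripts of these genes were tested. None passed in edgeR (0 of all 19836 transcripts tested passed, 0%), and 5, or 2.65%, had an unadjusted p under 0.05, against 10.4% of all transcripts tested. Transcripts annotated as coding held 94.8% to 95.8% of the counts of ribosomal protein genes with PBS and 95.6% to 96.1% with PM2.5. Transcripts with a retained intron held 1.71%, 1.66%, 1.141% and 1.43% in the PBS libraries and 1.32%, 1.09%, 1.05% and 1.11% in the PM2.5 libraries, lower in most PM2.5 libraries, with PM2.5 replicate 9 above PBS replicate 12.

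In 8 genes coding transcripts held under 60% of the counts. Retained-intron transcripts held 70.4% of the counts of Rpl12 and coding ones 11.1%. The coding share was 26.2% for Rps12 and 38.3% for Rpl5. In Rpl12, Rps12 and Rpl5, copies held 95.8%, 98.9% and 97.4% of the counts of gene and copies. The shares of Rpl12, Rps12 and Rpl5 therefore describe only the counts left to the gene, not all of its message. Low coding shares also occurred where copies held little. Coding transcripts held 52.5% in Rpl13a and 53.5% in Rpl22l1, whose copies held 0.0479% and 1.77% of counts. They held 39.8% in Rps16 and 42.4% in Rps20, whose copies held 15.4% and 29.1%. Coding transcripts held over 95% in 62 of the 81 genes with counts. The smallest p of a transcript was that of Rpl3-205, a transcript of Rpl3 annotated for nonsense-mediated decay that held 1.29% of its counts. Its log2 change was -1.45 (SE 0.460, unadjusted p = 0.0122, edgeR adjusted p = 0.382). Next was Rps25-203, with a retained intron, at -0.84 (adjusted p = 0.458), and Rps24-202, a minor coding transcript, was at 1.17 (0.461).

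Ribosome genes that the naming rule does not take include Rack1, a scaffold protein of the small subunit, which was at 0.18 (edgeR adjusted p = 0.668). Rps3a1, the small subunit gene whose name ends in a digit, was at 37.9, 36.4, 48.6 and 37.8 CPM with PBS and 33.3, 48.2, 41.0 and 44.4 CPM with PM2.5, a log2 change of 0.05 (0.899).

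The pathway that sets translation of these messages was covered by 14 genes of mTORC1 signalling and TOP regulation. Of these, 1 was higher and 0 lower past the test, where 1.6% of all genes passed, with a median of -0.04. The called gene was Eif4ebp1, whose protein restrains cap-dependent translation until mTORC1 phosphorylates it. It was at 2.39, 2.32, 2.66 and 2.29 CPM in the PBS libraries and 4.05, 6.23, 4.11 and 3.42 CPM in the PM2.5 libraries. All PM2.5 libraries thus lay above all PBS libraries, and the groups did not overlap in 9.66% of all genes tested. The log2 change was 0.88 (SE 0.179, edgeR adjusted p = 0.0207). The call was lost without PBS replicate 4 (adjusted p = 0.0618), PBS replicate 10 (0.101) or PM2.5 replicate 17 (0.0679), with the erythroid covariate (0.62, adjusted p = 0.525), with haemoglobin removed (0.51, 0.205), with library totals (0.28, 0.555) and in limma on log2(FPKM + 1) (0.30, 0.452). It held in 11 of 20 alternatives, over which the adjusted p ran from 0.000231 to 0.555.

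Other lists of the pathway had no called gene, where 1.6% of all genes passed. Their medians below are on the TMM scaling (all genes 0.04). Under library totals those of every list were below 0, as was that of all genes (-0.52). The 16 translation factors and further TOP messages had a median of 0.15, with Hnrnpa1 at -0.58 (edgeR adjusted p = 0.0858) and Btf3 at 0.51 (0.157) as the smallest p. Hnrnpa1 passed in 5 of 20 alternatives, DESeq2 among them (adjusted p = 0.0345), with a range from 0.026 to 0.647. Ribosome biogenesis factors had a median of -0.12 over the 33 tested of 36, with Nob1, the endonuclease that finishes the small subunit RNA, at -0.97 (0.139) and Dkc1, the pseudouridine synthase, at 0.53 (0.169, passing in 1 of 20 alternatives, which left out PM2.5 replicates 9 and 21, at 0.0438 in a range up to 0.916). Genes of ribosome rescue and clearance had a median of 0.05 over 14 tested, with Usp10 at -0.41 (0.257) and Nemf at -0.41 (0.303). The mitochondrial ribosomal protein genes, which serve the separate ribosome of mitochondria, had a median of 0.09 over the 66 tested of 78, with 39 above 0 and Mrpl32 at 0.42 (0.246) and Mrpl37 at -0.50 (0.251) as the smallest p.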

How the data were processed

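Total RNA of 8 buffy coat samples was primed at random, and the second strand was marked and digested, per the labels' protocols. Per the submitters' processing notes, HISAT2 2.0.1, cutadapt 1.9.1 and bcl2fastq 2.17.1.14 were used with GRCm38. The counting tool and its use of strand were not given in the sources used. Overlapping and antisense genes may therefore share reads. The authors deposited 1 table of 118783 transcripts with expected counts, which are estimated counts without normalization (24.5% of values not whole), a transcript length, and FPKM scaled by the authors by length and library, per the file headers. Here 116710 transcripts matched GENCODE M21 and were summed to 35944 genes. The rest held 0.0266% to 0.0532% of counts and were left out.

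Rounded expected counts went into the two-sided quasi-likelihood test of edgeR 4.0.16 under R 4.3.3 (minimum count 10, minimum total 15, TMM factors 0.638 to 1.52, group alone), with Benjamini-Hochberg adjustment over 10361 genes at 0.05, or over 19836 transcripts. Every adjusted p is from edgeR unless limma 3.58.1 or DESeq2 1.42.0 is named. SEs are approximate. On data simulated for this comparison, with 10053 genes, 22.4% of 1.5-fold, 80.6% of 2-fold and 100% of 4-fold changes were recovered, with 8 false calls. The changed genes were drawn only from those above the median CPM, so recovery in genes of lower counts was not measured. Every pair of libraries within a group differed by more than counting noise, so all 8 were kept. Copies were found with BLAST 2.17.0.

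The members and all lists were chosen with earlier results of these data known. Genes were named by a rule: called members or otherwise the 6 with the smallest p, the 5 highest and 5 lowest log2 changes, the 8 highest and 5 lowest FPKM, a fixed set of well-known members, paralogs and members not tested. Other lists gave called genes or their 2 smallest p, and transcripts the 4 smallest p. Rps3a1, Rps12, Rpl27a, Rpl31, Rpl36a, Rpl21, Rps28, Rps29, Rpl13a, Rps16 and Rps20 were named after their values were seen. Alternatives were scaling, filter, test, an erythroid covariate and libraries left out. Adding copies, and leaving these genes and haemoglobin out of the TMM factors, were chosen after seeing the data. A few genes and transcripts chosen by these rules are not reported here.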

Additional observations from a re-analysis of the deposited data

Results flagged for a closer look

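Within each group of 4 libraries, 92 sets of values were checked for a single library far from the other 3 (Dixon's gap criterion at 95%), and 9 were found. Chance alone marks about 1 in 20 such groups. Many of these sets are genes that move together by library, so the sets are not independent. The 9 therefore cannot be read against that rate. PBS replicate 12 stood above the other PBS libraries for Rpl17 (54.0 CPM), Rpl34 (69.2 CPM), Rpl38 (17.8 CPM), Rplp2 (132 CPM) and Rps3a1 (48.6 CPM), and for the median deviation of all 80 tested ribosomal protein genes (0.213 on the log2 scale). PBS replicate 10 stood above the others for Rpl14 (7.32 CPM) and for Mdm4 (10.8 CPM). PBS replicate 4 had the lowest share of ribosomal protein counts outside haemoglobin within its group (1.84%). No PM2.5 library was marked in this way.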

How the results depend on the processing

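No paired analysis was possible because the replicate numbers of the groups (4, 10, 12 and 16; 9, 17, 18 and 21) share no number. The count of ribosomal protein genes called was 0 in the reported fit, 1 with library totals (Rpsa lower) and 1 without a filter on low counts (Rpl10 higher, 0.69, adjusted p = 0.00623), where 4.66% and 3.46% of all genes were called. It was 0 under every other alternative run, but no gene of any kind was called with the erythroid covariate or on either FPKM scale, and 0.0718% of genes were without PM2.5 replicates 17 and 18, so those zeros say little. Leaving out single libraries gave 0 calls each time, medians from 0.021 to 0.203, and 0 transcripts called. The transcript fit on all 8 libraries called 0 of all 19836 transcripts, so the 0 for transcripts says little about these genes. The median of 0.09 became -0.463 with library totals, -0.246 with haemoglobin removed, -0.463 on log2(FPKM + 1), -0.481 on log2(FPKM + 0.1) and -0.156 with the erythroid covariate; the cause was not tested. It was 0.006 without PM2.5 replicates 17 and 18 and 0.161 without replicates 9 and 21. Of 26 named members tested, the sign of the log2 change differed from the reported one in 19 with library totals, 16 with haemoglobin removed, 18 of 25 on either FPKM scale, 13 with the erythroid covariate and 0 to 5 in the other alternatives, in each case without a call on either side. Leaving these genes and haemoglobin out of the TMM factors gave a median of 0.064. Haemoglobin left 9615114 to 12714423 counts per library for all other genes, which limits the genes of low counts such as Rpl22l1, Rps27l and Rpl7l1.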
